A study of Homo sapiens with 4 samples.

Results

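The immediate early response genes described here are IER2, IER3, IER5, EGR1, EGR2, EGR3, DUSP1, DUSP2, BTG2 and PPP1R15A. They were chosen by name, not by a measured value, but earlier results of these data were known, so the choice was not blind to them. They are 10 of the 19970 protein-coding genes of chromosomes 1 to 22 and X in GENCODE 44. ZNF217, a zinc finger transcription factor, was mapped by CUT&Tag, an assay in which a transposase is brought to an antibody and tags the DNA around it. The 2 groups used here were untreated MV4-11 and untreated U937 cells, each represented by 1 ZNF217 library, and the series also labels an IgG sample for each line, which was not analysed here. MV4-11 is a human myeloid leukemia line of monocytic character with a KMT2A fusion, and U937 is a human promonocytic line with a PICALM fusion. Each group is therefore a single established line, and no cells were stimulated.

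The deposited lists gave the start and end of each called peak on hg38, with no height or read count, so depth is unknown and a peak is either listed or not listed. With 1 library per line the differences between the lines had no replicate check, and no test between them was possible. The MV4-11 list held 37635 peaks on all sequences and 36356 on chromosomes 1 to 22 and X, and the U937 list held 22521 and 21737. Median widths on those chromosomes were 622 and 689 bp. A peak is called shared where it and a peak from the opposite line have 1 bp or more in common, as 40.4% of the MV4-11 peaks and 68.6% of the U937 peaks did. Promoter peaks lay at 9 of 10 myeloid markers in MV4-11 and 6 of 10 in U937, and at 2 of 10 markers of other lineages in each line. Over all protein-coding genes the shares were 59.0% in MV4-11 and 50.5% in U937, so the U937 count of myeloid markers was near that of any gene. CEBPA, MPO and CD14 had a promoter peak in MV4-11 only, and LYZ had none in either line.

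Immediate early genes are transcribed within minutes of a growth factor, cytokine or stress signal without any need for new protein synthesis. Mitogen-activated protein kinase (MAPK) cascades reach them through serum response factor (SRF) with its ETS partners at CArG boxes, and through CREB at cyclic AMP response elements (CRE). Most of their products either carry the response forward, as the EGR transcription factors do, or shut it down, as the DUSP phosphatases do. In myeloid cells several of them accompany monocyte and macrophage differentiation.

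The promoter sequences that hold these elements are shown first, because the ZNF217 peaks lie over them or end beside them. Promoter windows of 300 bases (250 before a start site and 50 from it) were taken from RefSeq on GRCh38.p14, the hg38 build, and 10 windows matched 8 of the 10 genes. IER3 and EGR3 were not matched. The motifs were searched on both strands: the CArG box, the full CRE (TGACGTCA) and the short CRE (TGACG), which also lies within the full one. Full CArG boxes were found in the windows of EGR1 and EGR2, and full CREs in those of DUSP1 and PPP1R15A. The stretches below are read 5′ to 3′ on the strand of the gene, and capitals mark CArG boxes, full CREs and short CREs in either orientation. They lie at chr5:138465324-138465437 on the plus strand for EGR1, chr5:172771282-172771387 on the minus strand for DUSP1, chr10:62816396-62816496 on the minus strand for EGR2 and chr19:48872352-48872381 on the plus strand for PPP1R15A.
EGR1: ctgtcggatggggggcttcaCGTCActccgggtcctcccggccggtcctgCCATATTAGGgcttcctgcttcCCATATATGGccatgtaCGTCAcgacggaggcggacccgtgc
DUSP1: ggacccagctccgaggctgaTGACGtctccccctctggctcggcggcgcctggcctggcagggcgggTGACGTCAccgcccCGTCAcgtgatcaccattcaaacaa
EGR2: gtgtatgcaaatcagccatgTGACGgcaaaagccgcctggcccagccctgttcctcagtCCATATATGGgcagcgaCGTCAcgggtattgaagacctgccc
PPP1R15A: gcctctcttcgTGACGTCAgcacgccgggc

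A CArG box was present in 1.3% of all 34961 RefSeq promoter windows of this length, and a full CRE in 1.85%. In EGR1 the CArG boxes lay 105 to 96 and 83 to 74 bases before the start site, and both were under the ZNF217 peak of each line. In EGR2 the single CArG box lay 71 to 62 bases before the start site of the shorter transcripts, with all 10 of its bases under the MV4-11 peak and 6 of 10 under the U937 peak, which ended there. The CRE of DUSP1, at 125 to 118 bases before the start site, was under a peak in both lines. The CRE of PPP1R15A, at 58 to 51 bases before the start site of the RefSeq window, was under the MV4-11 peak and lay 19 bp outside the nearest U937 peak. Each of these sites was therefore under a peak in MV4-11, while in U937 the peaks covered those of EGR1 and DUSP1 in full.

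The short CRE was found in 6 of the 10 windows (1 each of IER2, EGR1, EGR2, DUSP1, BTG2 and PPP1R15A) and in 24.5% of all windows. A TATAAA box at 30 to 25 bases before the start site was found for DUSP1 and PPP1R15A, and 11.5% of all windows held that motif. The GC-rich EGR variant GCGGGGGCG was found in the windows of DUSP2 and BTG2 and in 5.09% of all windows. The core of the EGR consensus, GCGTGGGCG, was found in none of the 10 windows and in 0.792% of all windows, and the AP-1 site TGANTCA in none of the 10 and in 7.68% of all. An ETS core (CCGGAA) was found for IER2 and IER5 and in 17.3% of all windows. The core letters of the ZNF217 motif, CAGAA, were found in 3 of the 10 windows, those of IER2, EGR1 and the longest EGR2 transcript, and in 54.4% of all windows. The 10 windows were GC-rich, with a median GC content of 69.5% against 58.7% for all windows and a median observed-to-expected CpG ratio of 0.906 against 0.58. In MV4-11, 8 of 10 windows were wholly under a peak, compared with 29.9% of all windows, and in U937 5 of 10, compared with 23%. These windows leave out EGR3, which had no U937 promoter peak, and IER3, which had none in either line. EGR2 gave more than 1 window. The 2 windows without cover in MV4-11 were both of EGR2 and were also uncovered in U937. A motif match describes letters in a window and does not show that a factor bound there.

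ZNF217 peaks lay at the promoters of most of the immediate early response genes in both lines, and over the gene bodies of nearly all of them. A promoter peak was any peak within 1 kb of an annotated start site (TSS). In MV4-11, 9 of 10 genes had one, and 59.0% of all protein-coding genes did. In U937, 8 of 10 had one, and 50.5% of all genes did. Both lines had a promoter peak at 8 of the 10 genes (47.4% of all genes), EGR3 had one in MV4-11 only (11.6% of all genes), no gene of the set had one in U937 only (3.10% of all genes), and IER3 had none in either line (37.9% of all genes). A peak directly over a TSS was listed for 9 genes in MV4-11 (54.0% of all genes) and for 7 in U937 (45.0%). The exception among the 8 U937 genes was EGR2, where the nearest TSS lay 59 bp outside the peak.

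**Figure D1:**
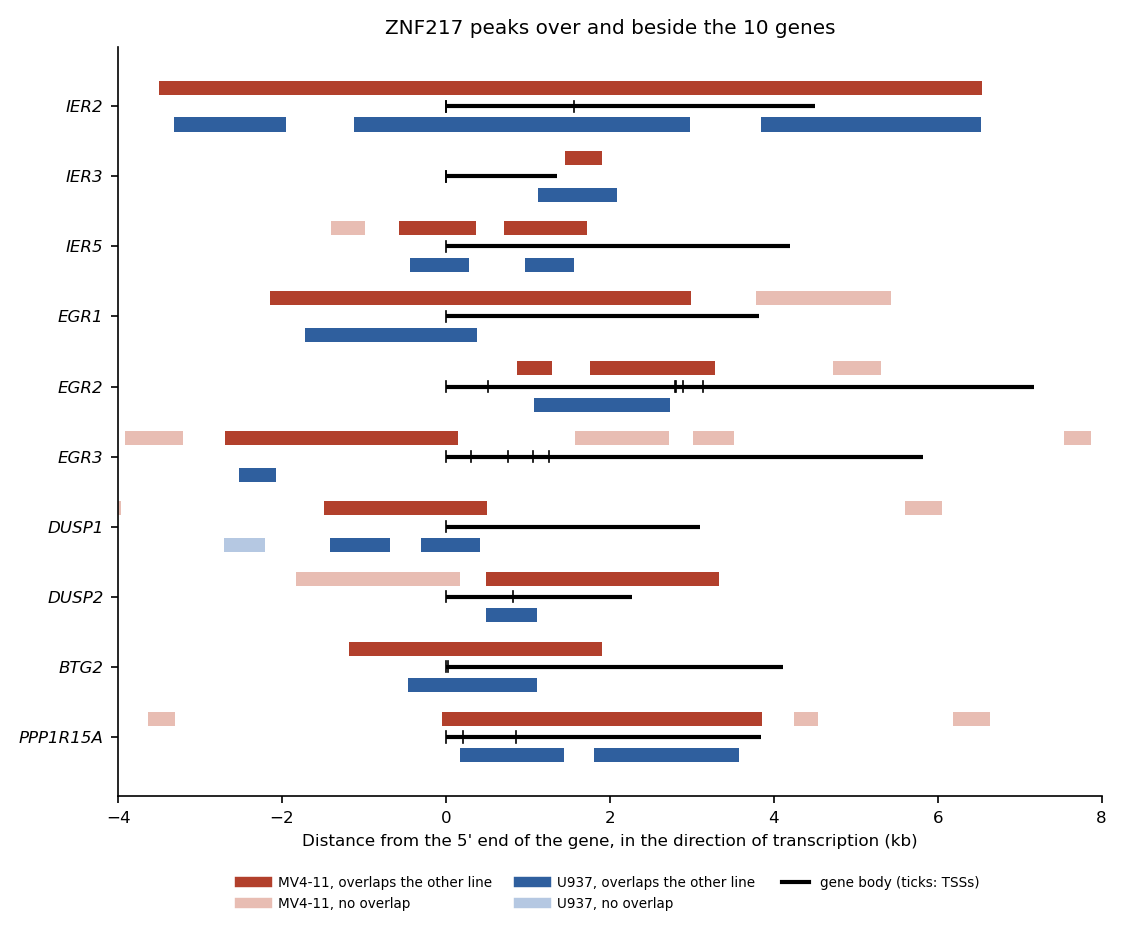
ZNF217 peaks around each gene, with distance from the 5′ end of the gene in kb on the horizontal axis, MV4-11 peaks drawn above the gene and U937 peaks below it, in full colour where they overlap a peak of the other line and pale where they do not, and short ticks marking TSSs. The MV4-11 peaks of IER2, EGR1, BTG2 and PPP1R15A extend beyond the U937 peaks on both sides, and IER3 has peaks only at its 3′ end.

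The peaks were also broad over most of these genes, though not over all. The widest promoter peak had a median width of 2843 bp over the 9 occupied genes in MV4-11, against 1084 bp over all 11779 genes with a promoter peak. In U937 the median was 1612 bp over 8 genes, against 979 bp over all 10091. The 90th percentile of all such genes was 2306 bp (MV4-11) and 1856 bp (U937). In MV4-11 IER2, EGR1, PPP1R15A, BTG2, EGR3 and DUSP2 lay above it, and in U937 IER2 and EGR1 did. Below the median of all such genes lay IER5 in MV4-11 (1009 bp) and DUSP2 (625 bp), IER5 (717 bp) and DUSP1 (734 bp) in U937. Among the 8 genes with a promoter peak in both lines, the widest one was wider in MV4-11 for 7, with EGR2 the exception, and 64.8% of all 9472 such genes showed that direction.

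**Figure D2:**
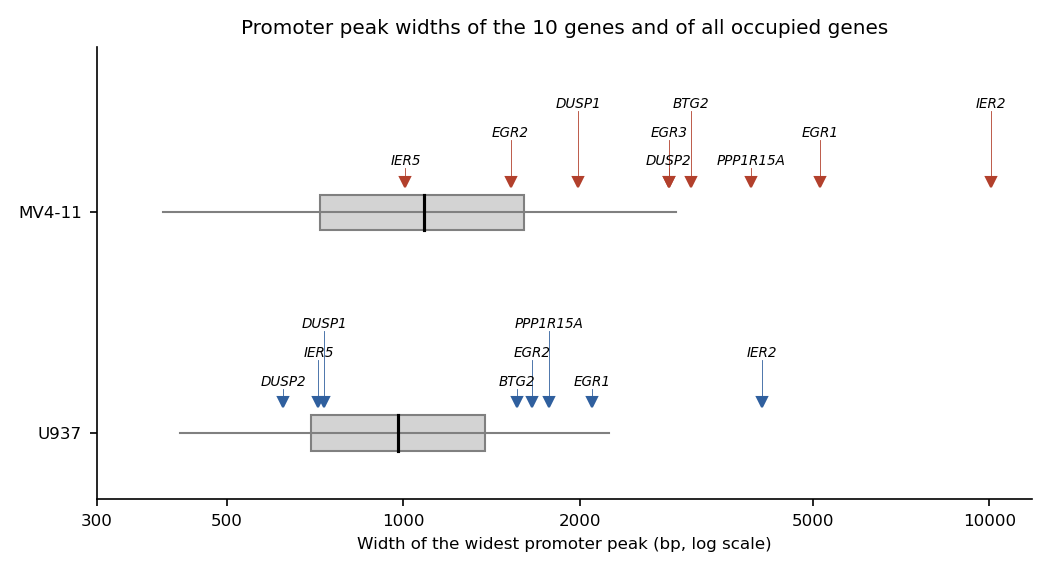
Width of the widest promoter peak in bp, on a log axis, for each immediate early response gene (triangles) above the distribution over all protein-coding genes with a promoter peak in that line (line from the 5th to the 95th percentile, box for the middle 50%, black bar for the median). IER2 is the widest of the set in both lines, at 10045 bp in MV4-11 and 4099 bp in U937, and DUSP2, IER5 and DUSP1 lie below the U937 median of 979 bp.

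The 10 genes are short, from 1350 bp (IER3) to 7172 bp (EGR2), and their bodies sum to 40203 bp. Peaks covered 21472 bp (53.4%) of this length in MV4-11 and 11961 bp (29.8%) in U937. Over all protein-coding genes the covered shares were 1.6% and 0.984%, and over the 3847 genes no longer than EGR2 they were 14.8% and 7.98%. The median share per gene was 40.9% in MV4-11 and 22% in U937 for the 10 genes, and 1.05% and 0.417% for all genes. A peak touched the body of 9 of 10 genes in MV4-11 (64.6% of all genes) and of 9 of 10 in U937 (55.6%). Only IER3 in MV4-11 and EGR3 in U937 had an uncovered body.

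At least 50% of the body was covered for 4 genes in MV4-11, namely IER2, DUSP2, EGR1 and PPP1R15A. The share of all genes so covered was 2.52%, and among genes no longer than EGR2 it was 11.3%. In U937 the bodies of IER2 and PPP1R15A were covered to that extent, as were 0.836% of all genes and 4.13% of the short ones. The short genes are the closer background, since a promoter peak of usual width spans a larger part of a short gene. Their median covered share was 0.0% in both lines, so this background also holds many genes without a peak over the body. A comparison with occupied short genes alone was not made. Coverage was higher in MV4-11 for 9 of the 10 genes, with IER3 the exception, and 69.9% of the 13666 genes covered in either line showed that direction. The MV4-11 list is the longer one. With only its widest peaks, as many as the U937 list holds, the covered share of the summed bodies in MV4-11 was 51.1%. Coverage was then higher in MV4-11 for 9 of the 10 genes, beside 60.2% of all genes covered in either line. Keeping the widest peaks retains those that cover the most bases, so this setting matches the number of peaks and not the covered length. The full lists covered 30.27 Mb in MV4-11 and 18.45 Mb in U937. Whether list length accounts for the difference in coverage was not tested.

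**Figure D3:**
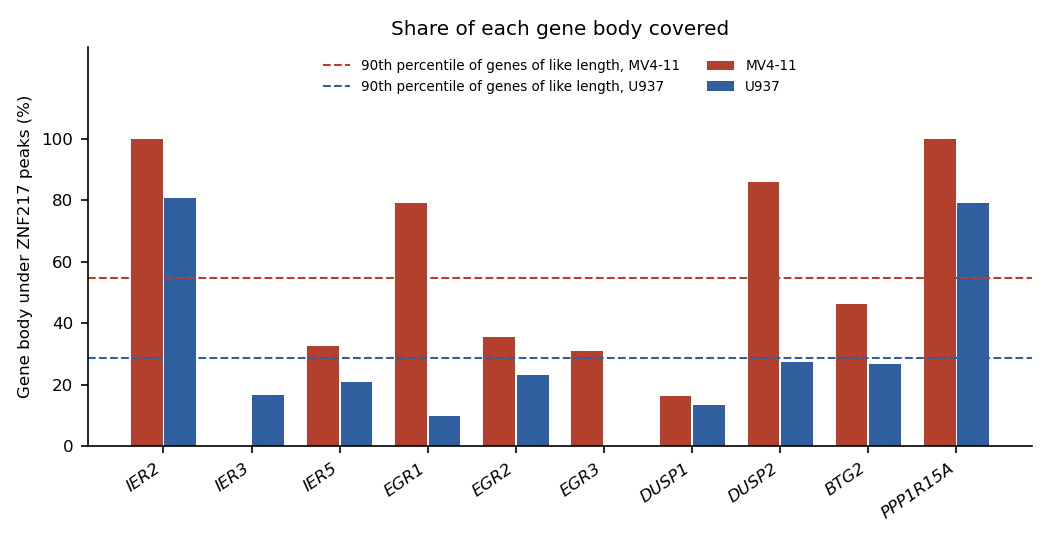
Percent of each gene body under ZNF217 peaks in MV4-11 and U937 (bars), with dashed lines at the 90th percentile of the 3847 protein-coding genes no longer than EGR2, 54.6% in MV4-11 and 28.7% in U937. IER2 and PPP1R15A exceed the line in both cell lines, EGR1 and DUSP2 exceed it in MV4-11 only, and DUSP2 and BTG2 in U937 lie just under it.

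Among the IER genes, which share a name from their fast induction and not a common fold, IER2 and IER5 were occupied at the promoter in both lines and IER3 in neither. IER2, a nuclear protein induced by growth factors, lies at chr19:13150411-13154911 on the plus strand. In MV4-11 a single peak of 10045 bp at chr19:13146910-13156955 covered 100% of the gene, from 3501 bp before its 5′ end to 6544 bp after it. It ranked 3 by width of the 36356 MV4-11 peaks on chromosomes 1 to 22 and X. In U937 the same stretch held separate peaks, and 80.7% of the body was covered. A peak of 4099 bp spanned the promoter at chr19:13149292-13153391, ranking 31 by width of 21737, and a peak of 2673 bp lay over the 3′ end at chr19:13154260-13156933. In U937 30.6% of the 669 coding bases and 83.2% of the 2410 bases of untranslated or non-coding exon were covered, and the intron was covered in full. The promoter peaks of both lines also reached the promoter of STX10, a syntaxin of the Golgi and endosomes, so they cannot be assigned to IER2 alone.

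IER5, a regulator of heat shock factor HSF1 that acts with protein phosphatase 2A, lies at chr1:181088700-181092900 on the plus strand and its widest MV4-11 promoter peak was the narrowest such peak of the 9 occupied genes. Its promoter peaks were 418, 936 and 1009 bp wide, the first ending 982 bp before the TSS, the second spanning it and the third beginning 706 bp after it. U937 had a peak of 717 bp over the TSS and one of 597 bp beginning 962 bp after it, and each lay wholly inside an MV4-11 peak. The body was covered to 32.7% in MV4-11 and 20.8% in U937. Of its 981 coding bases, 65.2% and 30.1% were covered, in the same order. The arrangement of the IER5 peaks was the same in both lines, apart from the 418 bp peak.

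IER3, a stress-induced protein that affects cell survival and is a known target of NF-kB, lies at chr6:30743199-30744548 on the minus strand within the major histocompatibility complex. No peak lay within 1 kb of its start sites in either line. The nearest MV4-11 peak, of 453 bp at chr6:30742646-30743099, was 1448 bp from a TSS and beyond the 3′ end of the gene. The nearest U937 peak, of 966 bp at chr6:30742459-30743425, was 1122 bp from a TSS, just outside the 1 kb window, and covered 16.8% of the body, all of it untranslated exon. The U937 peak contained the whole MV4-11 peak, and both reached the promoter of the neighbouring flotillin gene FLOT1. IER3 was the gene of the set with a larger covered share in U937, and its peaks sat where the next gene begins. The 5350 bp around IER3 recur at 99.91% to 99.98% identity on 5 alternate haplotype sequences of hg38, whereas the other 9 genes matched 1 place each. How reads were placed among these copies is not given in the sources used here, and its part in the result was not tested.

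The EGR genes encode zinc finger transcription factors that bind GC-rich sites and are held in check by the NAB corepressors. All 3 had promoter peaks in MV4-11, and EGR1 and EGR2 had them in U937. EGR1, a factor of monocyte differentiation, lies at chr5:138465479-138469303 on the plus strand. In MV4-11 a peak of 5133 bp at chr5:138463338-138468471 ran from 2141 bp before the TSS to 2992 bp after it, and it was wider than the widest promoter peaks of 99.4% of occupied genes. A second MV4-11 peak of 1648 bp lay over the 3′ end and beyond it, without a U937 counterpart. U937 had 1 peak of 2100 bp at chr5:138463759-138465859, inside the wide MV4-11 peak, which stopped 380 bp after the TSS. The body was thereby covered to 79.2% in MV4-11 and 9.96% in U937. All 1629 coding bases were covered in MV4-11 (100%) and 6.02% of them in U937, so the lines shared the upstream part of the peak and differed over the transcribed part.

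EGR2, a regulator of myeloid and Schwann cell programs, lies at chr10:62811996-62819167 on the minus strand and has 6 annotated TSSs. The MV4-11 peaks of 1525 bp (chr10:62815886-62817411) and 427 bp (chr10:62817867-62818294) lay near the downstream and upstream start sites. A further peak of 588 bp lay in the body, without overlap in U937. U937 had a single peak of 1659 bp at chr10:62816431-62818090, which joined the space between both MV4-11 promoter peaks and lay wholly in intron, covering 47.9% of it. The peaks of the lines were displaced from each other. Of the body with 1 kb on each side, 1203 bp were covered in both lines, 1337 bp in MV4-11 only and 456 bp in U937 only. The body was covered to 35.4% in MV4-11 and 23.1% in U937.

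EGR3, induced by antigen receptor signals and a target of other immediate early factors, lies at chr8:22687659-22693480 on the minus strand. It was the gene of the set with a promoter peak in MV4-11 only. The MV4-11 peak of 2843 bp spanned the 5′ end, from 2692 bp before it to 151 bp after it, and peaks of 1147 and 511 bp lay in the body. Together they covered 31.1% of the body. U937 had no peak in the body or within 1 kb of a TSS. Its nearest was a 460 bp peak 2071 bp from a TSS, which lay inside the upstream part of the 2843 bp MV4-11 peak. The lines thus had 460 bp of the 2843 bp peak in common (16.2%), all of it upstream of the gene. The rest of that peak, the peaks of 1147 and 511 bp and a 709 bp peak farther upstream were listed in MV4-11 only.

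DUSP1 and DUSP2 encode nuclear dual-specificity phosphatases that inactivate MAPKs and so limit the signal that induces them. Both had promoter peaks in both lines. DUSP1 lies at chr5:172768096-172771195 on the minus strand. In MV4-11 it had 1 peak of 1991 bp, from 1489 bp before the TSS to 502 bp after it. In U937 the same stretch held peaks of 718 bp over the TSS and 734 bp upstream of it, both wholly within the MV4-11 peak. DUSP1 had the most similar body coverage among the genes covered in both lines, 16.2% and 13.4%, all toward the 5′ end.

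DUSP2, expressed mainly in blood cells, lies at chr2:96143169-96145440 on the minus strand and has an annotated TSS at its 5′ end and another 823 bp downstream. MV4-11 had a peak of 2003 bp over the 5′ end, from 1828 bp before it to 175 bp after it, and a peak of 2840 bp from 490 bp after it to beyond the 3′ end. U937 had a single peak of 625 bp, at chr2:96144325-96144950, over the downstream TSS. It ended at the same base as the 2840 bp MV4-11 peak. The peak over the 5′ end was not listed in U937. The body was covered to 86.1% and 27.5%, and 625 bp of the body and 1 kb on each side were covered in both lines against 3332 bp in MV4-11 only.

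BTG2, an antiproliferative target of p53 that brings the CCR4-NOT deadenylase to mRNAs, lies at chr1:203305491-203309602 on the plus strand. The MV4-11 peak of 3093 bp ran from 1185 bp before the 5′ end to 1908 bp after it. The U937 peak of 1566 bp, from 461 bp before to 1105 bp after, lay wholly inside it. Both extended over the start of the divergent noncoding RNA BTG2-DT. The body was covered to 46.4% and 26.9%. Of its untranslated exon sequence 5.08% was under a peak in each line, and of its 474 coding bases 92.4% in MV4-11 and 30.0% in U937.

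PPP1R15A, also known as GADD34, directs protein phosphatase 1 to the translation factor eIF2α and restores protein synthesis after stress. It lies at chr19:48872212-48876059 on the plus strand. In MV4-11 a peak of 3914 bp at chr19:48872160-48876074 covered 100% of the gene and matched its ends closely, starting 52 bp before the 5′ end and stopping just past the 3′ end. In U937 peaks of 1269 bp and 1773 bp covered 79.1% of the body, and 76.1% of the 2262 coding bases. Both lay inside the MV4-11 peak. PPP1R15A and IER2 were the genes covered over most of their length in both lines, above 98.0% and 98.1% of the short genes in U937 and above 97.1% of them in MV4-11.

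In 7 of the 9 genes with any U937 coverage in the body or 1 kb on each side, every U937-covered base was also covered in MV4-11, and 25.7% of the 11550 genes with such coverage showed this. The exceptions were IER3, with 513 bp covered in U937 only, and EGR2. The bases covered in MV4-11 only ranged from 0 bp (IER3) to 3650 bp (EGR1).

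Over the gene bodies and 50 kb on each side, MV4-11 had 91 peaks and U937 had 53. Of the MV4-11 peaks 45 (49.5%, exact 95% binomial interval 38.8% to 60.1%, counting error only) were shared, and of the U937 peaks 47 (88.7%, 77.0% to 95.7%). Over the whole lists the shared shares were 40.4% and 68.6%, so the MV4-11 interval contains the value of the whole list and the U937 interval lies above it. The mix of promoter and other peaks was not matched in this comparison. Of the U937 promoter peaks of all protein-coding genes 87.0% were shared, so the higher U937 share is not shown to be particular to these genes. The median number of peaks per gene was 9.5 and 5.5, compared with 3.0 and 2.0 for all genes. MV4-11 had more peaks at 9 of the 10 genes, and 66.6% of the 17011 genes with any peak showed that direction. DUSP1 was the exception, with 6 peaks in MV4-11 and 7 in U937. With the widest MV4-11 peaks alone, as many as the U937 list holds, the total fell to 55 against 53, and MV4-11 had more peaks at 5 genes, as many at 2 and fewer at 3 (IER3, DUSP1 and PPP1R15A), so the difference in number between the lines depended on the length of the lists. IER2 had the most peaks of the set, 16 in MV4-11 and 11 in U937. DUSP2 had the fewest in U937 with 1, and IER3 the fewest in MV4-11 with 3.

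Most of the peaks at the promoters of the 10 genes themselves were shared. There 11 of 14 MV4-11 peaks (78.6%, 49.2% to 95.3%) and 11 of 11 U937 peaks (100%, 71.5% to 100%) were shared. Over the promoter peaks of all protein-coding genes the shares were 62.6% of 14637 and 87.0% of 10647, and both lie inside these intervals. At the promoters of other protein-coding genes in the flanks the counts were 11 of 21 and 10 of 11. Away from the promoters of protein-coding genes they were 23 of 53 (43.4%, 29.8% to 57.7%) and 24 of 29 (82.8%, 64.2% to 94.2%). Promoters of noncoding genes were not considered in this division. The MV4-11 intervals for promoters and for sites away from them overlapped. The U937 interval for sites away from promoters contains the 68.6% of the whole list. The 3 MV4-11 peaks in the bodies and away from the TSSs, those of EGR1, EGR2 and EGR3, were not shared. The shared MV4-11 peaks were wider, with a median of 1422 bp against 492 bp for the others, and 7 of the unshared ones were narrower than any peak of the U937 list, whose narrowest was 330 bp. In U937 the medians were 905 bp and 674 bp.

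**Figure D4:**
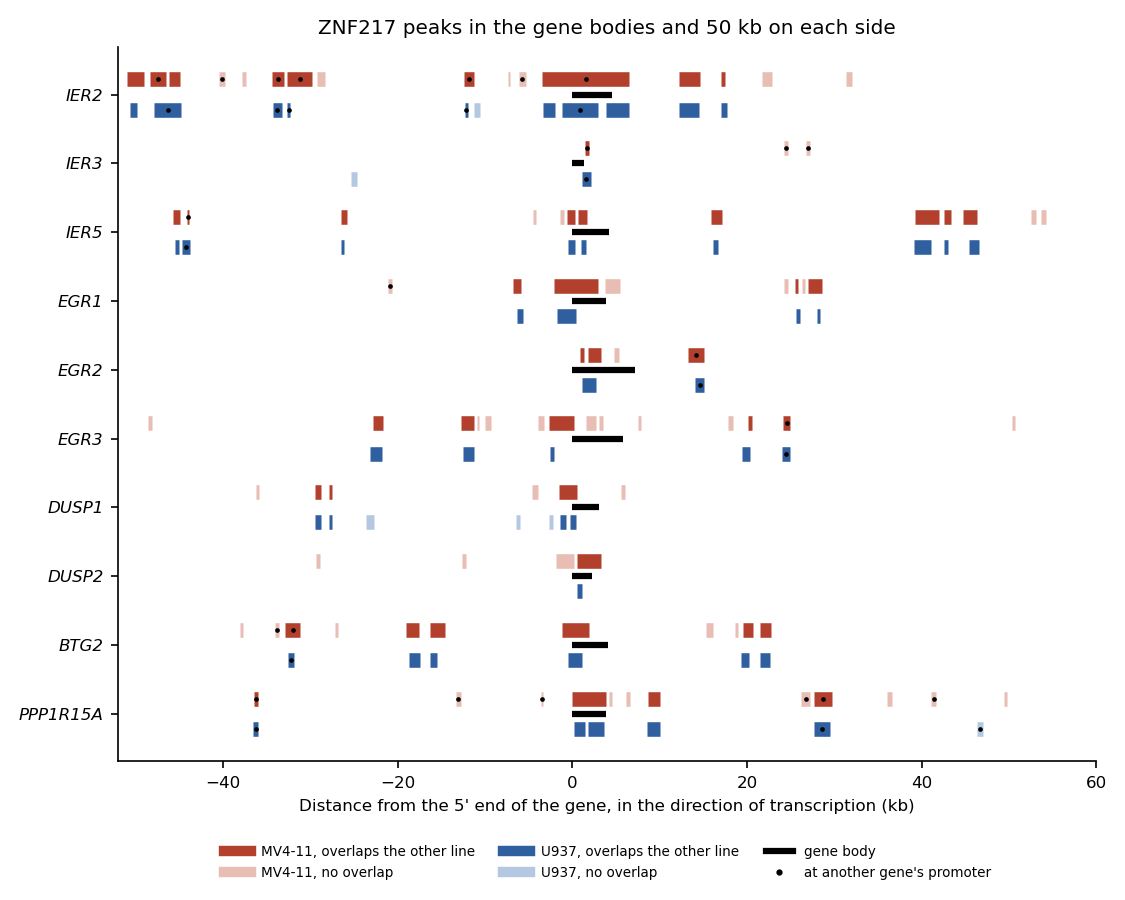
ZNF217 peaks in each gene body and 50 kb on each side, with distance from the 5′ end in kb on the horizontal axis, MV4-11 above and U937 below each gene, full colour for peaks that overlap the other line, pale for those that do not, and a black dot for peaks at the promoter of another protein-coding gene. Of 91 MV4-11 peaks 45 are shared, and of 53 U937 peaks 47 are shared.

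The flanks of IER5 held a group of peaks 39.2 to 46.3 kb downstream in MV4-11, of 2791, 787 and 1642 bp, away from any protein-coding promoter, and U937 had peaks of 2025, 496 and 1125 bp overlapping each of them. All 9 U937 peaks of the IER5 window were shared. Around BTG2 pairs of shared peaks lay on either side, of 1505 and 1772 bp upstream and 1199 and 1247 bp downstream in MV4-11, and all 6 U937 peaks were shared. EGR1 had shared peaks upstream (931 bp in MV4-11 and 742 bp in U937) and 25.5 to 28.6 kb downstream. None of these shared EGR1 peaks lay at the promoter of another protein-coding gene.

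By contrast the flanks of IER2 and PPP1R15A, both on chromosome 19, held many promoter peaks of neighbours. The widest flanking peaks of IER2 were 2853 bp at NACC1 and TRMT1 in MV4-11 and 3103 bp at LYL1, a hematopoietic basic helix-loop-helix factor, in U937. Those of PPP1R15A were at NUCB1, a calcium-binding Golgi protein, 2111 bp wide (MV4-11) and 1889 bp (U937). The EGR2 flanks held 1 peak in each line, at the promoter of ADO, a thiol dioxygenase, 1752 bp wide (MV4-11) and 1035 bp (U937). The DUSP2 flanks held 2 peaks in MV4-11, both unshared and narrow (491 and 477 bp), and none in U937. EGR3 had 14 peaks in MV4-11 and 5 in U937, and all 5 were shared. A peak in these flanks cannot be assigned to a gene of the set from its position alone.

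The lists of related genes were chosen by function, with earlier results of these data known. Of 14 paralogs (the remaining EGR, DUSP, BTG and TOB, IER5L and PPP1R15B genes on the list), 9 had a promoter peak in MV4-11 and 10 in U937. EGR4, DUSP8, BTG3 and BTG4 had none in either line, and DUSP16, a phosphatase of JNK, had one of 511 bp in U937 only. The widest in both lines were TOB2 (2882 bp in MV4-11 and 2074 bp in U937), DUSP10 (1937 and 2446 bp), TOB1 (2644 and 1880 bp) and DUSP6 (3204 and 1413 bp). The median body coverage of the paralogs was 6.9% and 6.32%, below that of the 10 genes, with no adjustment for the length of the genes.

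Of 30 other immediate early genes, 27 had a promoter peak in MV4-11 and 25 in U937. CCN1, CCN2 and ARC, which are best known from fibroblasts, endothelium and neurons, had none in either line, and KLF2 (799 bp) and RHOB (485 bp) had one in MV4-11 only. The widest in both lines were KLF10 (3212 bp in MV4-11 and 3207 bp in U937), JUN (3192 and 3874 bp), GADD45B (2956 and 2786 bp) and JUNB (6351 and 2536 bp). The median body coverage of this list was 22.6% in MV4-11 and 13.9% in U937, also without adjustment for length. The median widest promoter peak was 1681 and 1363 bp.

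Of 15 SRF and MAPK regulators, 13 were occupied in MV4-11 and 15 in U937. ELK3, an ETS partner of SRF, and MED23, the Mediator subunit that ELK1 contacts, had promoter peaks in U937 only, of 1031 and 881 bp. The widest in both lines were those of the kinases MAPK14 (1453 and 1448 bp) and RPS6KA1 (2486 and 1304 bp) and of the factors CREB1 (1224 and 1517 bp) and ELK1 (1284 and 1173 bp). All 10 partner genes were occupied in both lines. The widest were those of PRMT1, an arginine methyltransferase bound by BTG2 (3283 and 2619 bp), the EGR corepressor NAB2 (3215 and 2468 bp), HSF1 (2249 and 1405 bp) and the deadenylase CNOT7 (1456 and 1344 bp). The median body coverage of the regulator list was 1.36% (MV4-11) and 1.37% (U937), with no adjustment for the length of the genes.

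**Figure D5:**
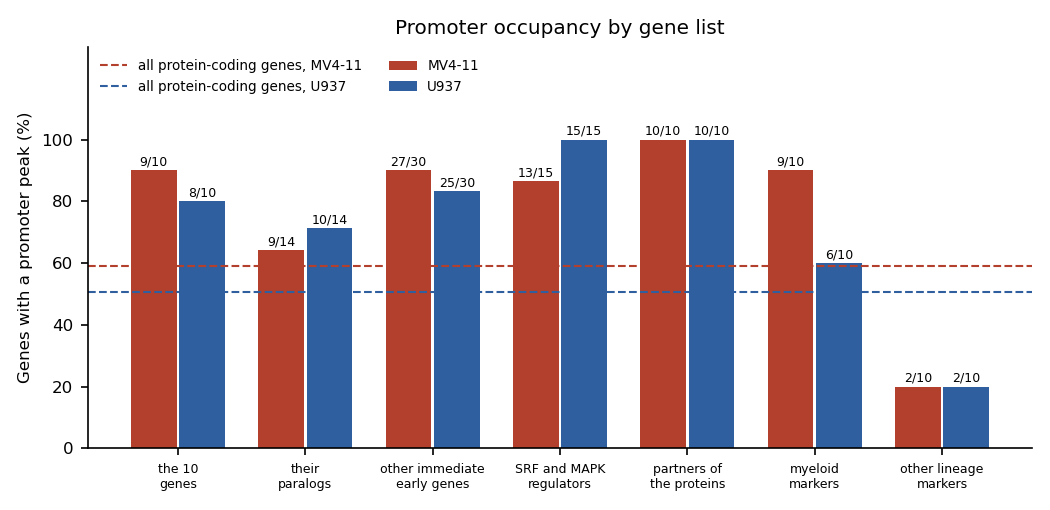
Percent of the genes of each list with a ZNF217 promoter peak in MV4-11 and U937, with the counts above the bars and dashed lines at the shares of all 19970 protein-coding genes, 59.0% in MV4-11 and 50.5% in U937. The 10 genes reach 9 of 10 and 8 of 10, the other immediate early genes 27 of 30 and 25 of 30, and the markers of other lineages 2 of 10 in each line.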

How the data were processed

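Peaks had been called by the authors from reads aligned to hg38 with Bowtie2 2.4.4, using MACS3 3.0 on paired-end fragments, per the submitters' processing notes and the study's methods. Whether the IgG library was the control, and whether duplicates or blacklisted regions were removed, is not given in the sources used here. The deposited values are other than a signal unit: chromosome, start and end of each peak, without score or count, so depth is unknown. The start may be counted from 0 or 1, an uncertainty of 1 bp, and width is end minus start. Groups came from the sample titles.

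The 10 members and the gene lists were chosen with earlier results of these data known. GENCODE 44 gave gene spans and TSSs. All members were named, and of the other lists the genes lacking a promoter peak in a line and up to 4 with the widest peaks in both, ranked by the smaller width. Neighbours were named where a peak over a member reached their promoter or where they held the widest flanking peak. Percentiles give the share of genes below. Measures were tested on simulated peaks. Copies of the genes were sought with minimap2 2.31 and sequences read with samtools 1.23.1. SciPy 1.17.1, pandas 2.3.3, NumPy 2.4.6 and Matplotlib 3.10.9 were used under Python 3.11.15. Shares of peaks have exact (Clopper-Pearson) 95% intervals. Alternatives covered peak width, list length, merging, promoter, overlap, flank and gene span, and the genes used as background.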

Additional observations from a re-analysis of the deposited data

Results flagged for a closer look

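The alternate haplotype sequences of chromosome 6, which were outside the comparisons above, also carried peaks at IER3. In U937 a peak of 904 bp lay over the IER3 start site on 1 of the 5 copies, from 81 bp before it to 823 bp after it, whereas no peak lay within 1 kb of the start sites on the primary chromosome. U937 had 6 peaks over the 5 copies, with at least 1 on each. MV4-11 had peaks of 433 and 446 bp on 2 copies, none of them within 1 kb of the start site. No IgG list was compared, and how reads were placed among the copies was not tested.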

How the results depend on the processing

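No summary value over the 10 genes reversed its direction between the lines, but values of single genes did, among them the number of peaks at 2 genes. With the full lists IER3 had 3 peaks in MV4-11 and 2 in U937, and PPP1R15A had 12 and 6. With the widest MV4-11 peaks alone, as many as the U937 list holds, IER3 had 0 and 2, and PPP1R15A had 5 and 6. When peaks less than 500 bp apart were merged, the EGR2 promoter peaks of MV4-11 joined into a single peak at chr10:62815886-62818294. It was wider than the 1659 bp U937 peak, so EGR2 was no longer the exception in promoter peak width. Restricting MV4-11 to its widest peaks, as many as the U937 list holds, left 55 peaks around the genes and a shared share of 69.1%, while gene-body coverage stayed at 51.1%. Requiring a reciprocal overlap of 50% lowered the shared share to 27.5% in MV4-11 and 47.2% in U937. Flanks of 20 kb gave 50 and 32 peaks, and flanks of 100 kb gave 150 in MV4-11. These values follow from how the settings were built, with fewer peaks, a stricter overlap or another length of flank. With a promoter of 3 kb on each side, all 10 genes had a promoter peak in both lines. With 1 TSS per gene the count stayed at 9 in MV4-11 and fell to 7 in U937 and to 7 in both lines. The gene lost was EGR2, whose U937 peak begins 1077 bp after the 5′ end. Extending gene spans by 1 kb moved 7 of the 20 single-gene values under that setting by over 1.5 times, among them EGR1 in U937 (23.7%), DUSP1 in MV4-11 (29.5%) and PPP1R15A in U937 (52.0%). The other 55 summary values stayed within 1.5 times the reported value or, for shares of peaks, within the binomial interval. No paired analysis was possible because each line had 1 library, and none could be left out. Unknown depth means that an unlisted peak is not shown to be absent.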
